A study of Homo sapiens with 2 samples.

Results

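The 10 giant cytoskeletal linker genes described here are DST, MACF1, SPTAN1, SPTBN1, ANK2, ANK3, MAP1B, MAP2, SYNE1 and SYNE2. They were taken by symbol out of 60554 genes with a count, of which 19586 are protein-coding. The list was selected on measured levels in part, because DST and SPTBN1 were chosen as among the genes with the most counts, and the other 8 are their relatives and partners. Earlier results of these data were known when all 10 were chosen. Levels are therefore given as a description, without a test.

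RNA bound to chromatin, in which nascent transcripts are enriched, was sequenced from SH-SY5Y cells, a human neuroblastoma line. The cells carried no genetic modification, no treatment is given, and the only condition was measured in 2 replicates. No source used here says if the replicates came from separate cultures, so the spread between them may be technical. The study used this assay to set the expression of genes beside their capture in a targeted single-cell screen.

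The proteins of these genes tie the parts of the cytoskeleton to each other and to membranes. Spectrins form a mesh of paired alpha and beta chains under the plasma membrane, and ankyrins fasten ion channels and adhesion molecules to it. Spectraplakins bridge actin filaments and microtubules, MAP1B and MAP2 bind along microtubules in growing axons and in dendrites, and nesprins reach from the outer nuclear membrane to the cytoskeleton. In neurons these proteins help to shape axons and dendrites and to place the nucleus.

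The libraries held 4155210 and 3425309 read pairs counted in genes, on the strand that the directional libraries mark as sense, in replicates 1 and 2. A further 79.4% and 80.7% of the read pairs that were counted or unassigned on this strand lay in no exon annotated on it. These include pairs over exons of the opposite strand. Read pairs of introns are not part of a gene's count. All 9 markers of sympathetic neuroblasts reached a mean count of 10, with a median of 324 counts per 1000000 counts in genes (CPM) and 831 CPM for HAND2. Of 30 markers of stratified epithelium, muscle, erythroid cells, Schwann cells and leukocytes, 4 reached it, which were EPCAM, ACTN2, NEB and TTN, and 17 had no count, with KRT5, DES, HBB, SOX10 and PTPRC among them. The summed CPM of these lists was 7.94 and 6.13 for epithelium and 26.0 and 24.8 for muscle. TTN had 12 and 9 counts, beside 14705 and 12400 on the opposite strand, and NEB had 21 and 19 beside 184 and 183. EPCAM had 1 and 0 opposite counts and ACTN2 had none. The source of the sense counts of TTN and NEB was not tested. In bulk RNA, fewer cells that express a gene and less RNA per cell cannot be told apart.

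All 10 linker genes reached a mean count of 10, as did 59.4% of protein-coding genes. They held 49792 and 40229 counts, which was 1.31% and 1.29% of the counts in protein-coding genes, while their exons are 0.307% of protein-coding exon bases. DST, SPTBN1, MACF1 and SYNE2 supplied 81.8% and 82.5% of these counts. Since DST and SPTBN1 were chosen for their many counts, the excess over the share of exon bases is in part set by that choice. Within the list, the level thus ranged from the most counts of any protein-coding gene to the middle of the detected genes.

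DST encodes dystonin, a spectraplakin, and had more counts than any other protein-coding gene. It lies on the minus strand of chromosome 6 from 56457987 to 56954830 (GRCh38; ENSG00000151914.18 in the files). Its counts were 13705 and 11400, or 3298 and 3328 CPM, with a mean of 3313 ± 21.1 CPM (SD, n = 2). The nearly equal CPM values differed by far less than the distance to the next gene, MEIS2, at 2964 ± 23.0 CPM (n = 2). Its paralogue MACF1, on the plus strand of chromosome 1 from 39081316 to 39487177, had 8330 and 6660 counts, 1975 ± 42.7 CPM (n = 2), and ranked 9.

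SPTBN1 encodes the main beta spectrin outside red cells and ranked 4 by CPM. It lies on the plus strand of chromosome 2 from 54456317 to 54671446 (ENSG00000115306.15). It had 11047 and 8218 counts, or 2659 and 2399 CPM, with a mean of 2529 ± 183 CPM (n = 2). The genes next to it in this order were DDX5 at 2562 ± 251 CPM above, and EML5 at 2336 ± 125 CPM and BIRC6 at 2322 ± 7.51 CPM below (n = 2 each). The range of SPTBN1 overlapped those of DDX5 and EML5. SPTAN1, its alpha partner on the plus strand of chromosome 9 from 128552558 to 128633662, had 2297 and 1372 counts, 477 ± 108 CPM (n = 2), the widest spread of the 10 genes relative to the mean.

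SYNE2 encodes a nesprin and ranked 12, with 7629 and 6902 counts and 1926 ± 127 CPM (n = 2) from the plus strand of chromosome 14 (63761899 to 64226433). SYNE1, the other large nesprin gene, on the minus strand of chromosome 6 (152121687 to 152637801), had 1508 and 1575 counts and 411 ± 68.5 CPM (n = 2). In both nesprin genes the CPM was higher in replicate 2.

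The microtubule-associated genes and the ankyrins all had fewer counts than DST, SPTBN1, MACF1 and SYNE2. MAP2, on the plus strand of chromosome 2 (209424047 to 209734147), had 2094 and 1690 counts and 499 ± 7.47 CPM (n = 2). MAP1B, on the plus strand of chromosome 5 (72107234 to 72209565), had 996 and 825 counts and 240 ± 0.817 CPM (n = 2). Both genes varied little between the replicates. ANK2, which encodes ankyrin-B, lies on the plus strand of chromosome 4 (112818032 to 113384221) and had 2047 and 1456 counts and 459 ± 47.8 CPM (n = 2). ANK3, which encodes ankyrin-G, lies on the minus strand of chromosome 10 (60026298 to 60733490) and had only 139 and 131 counts, 35.8 ± 3.39 CPM (n = 2), at rank 5781. ANK3 is the longest of the 10 genes by genomic span, 707 kb, and had the fewest counts.

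The sequences before the starts of 4 members are shown because the genes stand at the top (DST, SPTBN1), the middle (MACF1) and the bottom (ANK3) of the order of level per kb of exon. They are up to 250 bases upstream of the RefSeq start (GRCh38.p14) that coincides with the start of the representative transcript, each printed 5′ to 3′ on the strand of the gene. Capitals mark matches on either strand to 4 short motifs of promoters. The GC box, searched as GGGCGG, is known as a site of Sp family factors. The core promoter element searched as TATAAA is the TATA box. The motif of NF-Y was searched as its core letters, CCAAT, and is called by them. The E box, which basic helix-loop-helix factors bind, was searched as CACGTG. Copies of a motif may overlap each other. The last 10 bases of the SPTBN1 window lie in an annotated exon and were left out.
DST, chr6:56954831-56955080, minus strand: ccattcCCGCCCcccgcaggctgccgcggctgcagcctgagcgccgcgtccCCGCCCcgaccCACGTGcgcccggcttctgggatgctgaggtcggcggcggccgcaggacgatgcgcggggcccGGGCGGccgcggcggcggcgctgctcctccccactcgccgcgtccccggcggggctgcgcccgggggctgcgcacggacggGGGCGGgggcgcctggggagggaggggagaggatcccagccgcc
SPTBN1, chr2:54456077-54456316, plus strand: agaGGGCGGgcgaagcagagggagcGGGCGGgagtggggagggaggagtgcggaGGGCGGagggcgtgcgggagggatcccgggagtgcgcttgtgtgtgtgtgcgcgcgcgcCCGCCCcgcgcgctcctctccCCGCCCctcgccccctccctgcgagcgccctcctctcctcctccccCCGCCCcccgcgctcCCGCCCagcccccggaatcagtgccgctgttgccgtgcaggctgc
MACF1, chr1:39204445-39204694, plus strand: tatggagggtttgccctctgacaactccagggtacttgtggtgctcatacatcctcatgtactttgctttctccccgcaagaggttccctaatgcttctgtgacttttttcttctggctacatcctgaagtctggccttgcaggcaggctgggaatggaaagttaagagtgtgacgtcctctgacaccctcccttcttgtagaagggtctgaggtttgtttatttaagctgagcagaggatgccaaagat
ANK3, chr10:60389876-60390125, minus strand: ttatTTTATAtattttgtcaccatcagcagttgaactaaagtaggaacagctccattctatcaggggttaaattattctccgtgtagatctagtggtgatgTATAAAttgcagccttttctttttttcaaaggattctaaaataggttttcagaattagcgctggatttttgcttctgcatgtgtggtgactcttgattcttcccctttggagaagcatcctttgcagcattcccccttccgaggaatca

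The upstream windows of DST and SPTBN1 held 39 and 30 CpG dinucleotides, those of MACF1 and ANK3 held 2 and 3, and the median over 35116 RefSeq windows was 11. SPTBN1 had 7 GC boxes and DST had 4 with 1 E box. ANK3 had 2 TATA boxes, and MACF1 had none of the 4 motifs in this window. A GC box occurred in 42.6% of all windows, a TATA box in 10.7%, CCAAT in 32.0% and an E box in 6.34%. Of the 9 members with a RefSeq start at that position, 5 had a GC box, 4 a TATA box, 1 CCAAT and 1 an E box. The other counts of CpG were 46 in SPTAN1, 33 in SYNE2, 25 in MAP1B, 7 in SYNE1 and 6 in ANK2, and MAP2 had no start that coincides. The members have 35 RefSeq starts in all, and which starts were used in these cells cannot be read from counts per gene. MACF1 and SYNE1 each have another start with a window rich in CpG, with 32 and 28 of them. Another start of ANK3 had 14 CpG, above the median of 11, and 1 GC box, while the other starts of DST had 4 and 2 CpG.

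CPM counts read pairs and grows with exon length, so that levels of different genes were compared per kb of annotated exon. The exons of MACF1 sum to 70.6 kb when merged over transcripts, and those of ANK2 to 55.1 kb, DST to 48.1 kb, SYNE1 to 47.5 kb and SYNE2 to 32.4 kb. The shortest, MAP2, has 11.8 kb, and the median protein-coding gene has 4.48 kb. MACF1, ANK2, DST and SYNE1 rank 2, 4, 8 and 9 by this length among protein-coding genes. Introns take up between 79.7% of the span in SPTAN1 and 96.3% in ANK3, against a median of 83.2%.

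Per kb of exon, SPTBN1 was the highest of the list, with 143.9 and 129.9 CPM per kb (136.9 ± 9.93, n = 2), and DST followed with 68.5 and 69.1 (68.8 ± 0.439, n = 2). SYNE2 had 56.7 and 62.3, MAP2 had 42.6 and 41.7, SPTAN1 had 33.5 and 24.3, and MACF1 had 28.4 and 27.6 CPM per kb. MAP1B had 19.1 and 19.2, SYNE1 had 7.64 and 9.68, ANK2 had 8.93 and 7.71, and ANK3 had 1.30 and 1.48. SPTAN1 and MACF1 overlapped between the replicates, as did SYNE1 and ANK2, and the other neighbours in this order did not. The mean levels of SPTBN1 and ANK3 lay 98.6-fold apart. MEIS2 and DDX5, close to DST and SPTBN1 in counts, had 249 and 275 CPM per kb and so stood above every member on this scale.

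**Figure D1:**
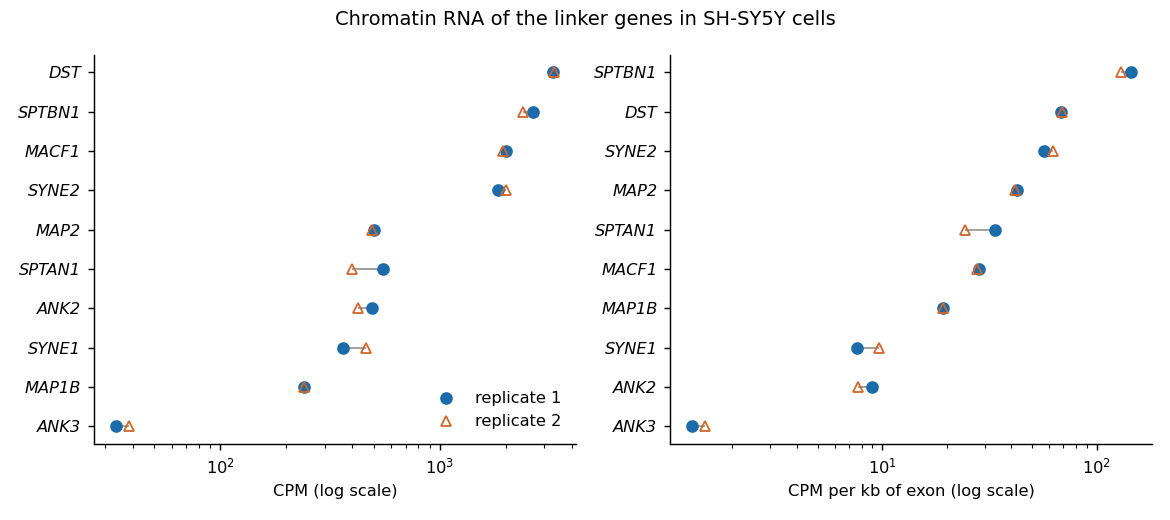
Level of the 10 linker genes in both replicates, as CPM (left) and as CPM per kb of exon (right), both on log axes, with a line joining replicate 1 (filled circle) and replicate 2 (open triangle). DST leads at 3313 CPM and SPTBN1 at 136.9 CPM per kb, and ANK3 is last on both scales at 35.8 CPM and 1.39 CPM per kb.

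By CPM, 9 of the 10 genes were in the top 10% of protein-coding genes, against 33.7% of protein-coding genes with at least 10 kb of exon, a length that all 10 members reach. Per kb of exon, 7 of 10 were in the top 10%, and SYNE1, ANK2 and ANK3 were not. DST and SPTBN1, chosen for their counts, are among the 9 and among the 7. The other members were also chosen with earlier results of these data known, so these shares are a description only. DST moved from rank 1 to rank 195 between the scales, MACF1 from 9 to 967, SYNE2 from 12 to 236 and SPTBN1 from 4 to 47. The median member had 28.4 CPM per kb, against 1.90 over all protein-coding genes, 6.50 over the 11637 that averaged 10 counts or more and 4.56 over those with at least 10 kb of exon. Across those 11637 genes, which are not independent replicates, the Spearman correlation of exon length with CPM was 0.45 and with CPM per kb was -0.02.

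**Figure D2:**
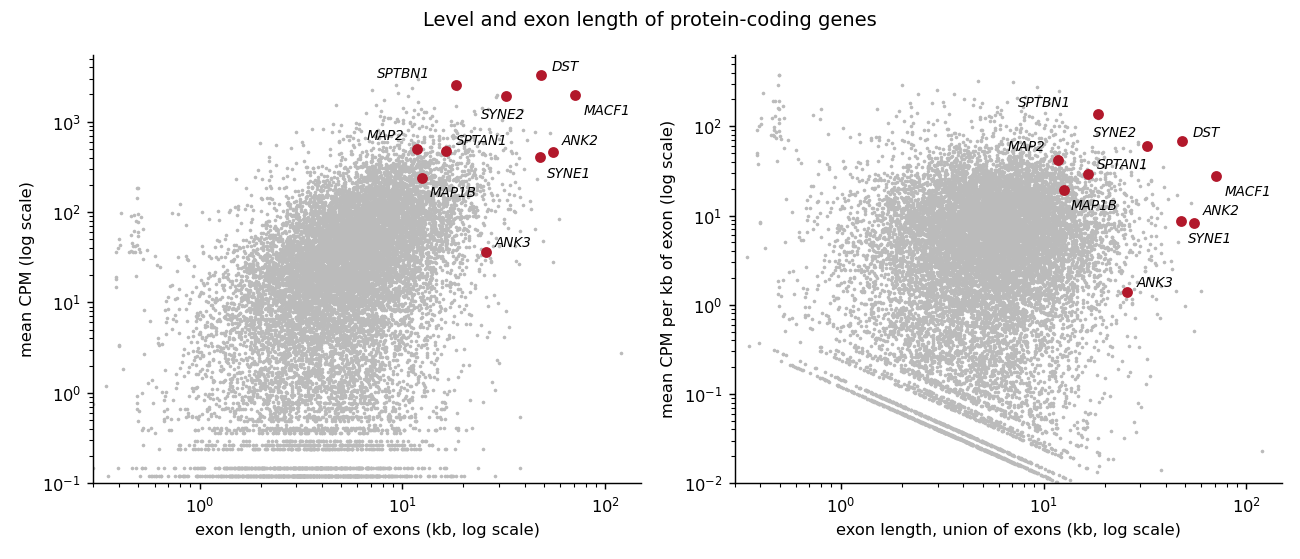
Mean CPM (left) and mean CPM per kb of exon (right) against exon length in kb, all on log axes, for protein-coding genes (grey, those under the lower edge not drawn) and the 10 linker genes (red). The red points lie to the right at 11.8 kb of exon or more, and on the left panel 9 of them are in the top 10% of genes.

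The length given to a gene changes this order. With the length of the representative transcript in place of the merged exons, SPTBN1 had 247.7 ± 18.0 CPM per kb, DST 134.1 ± 0.856, SYNE2 88.2 ± 5.80 and MACF1 81.1 ± 1.75 (n = 2 each). MACF1, whose merged exons are 2.90 times its representative transcript, then stood above SPTAN1 (60.5 ± 13.7) and MAP2 (51.7 ± 0.774). ANK2, with a factor of 3.88 and 129 annotated transcripts, came to 32.3 ± 3.36 CPM per kb and passed MAP1B (20.4 ± 0.0693) and SYNE1 (14.8 ± 2.47). ANK3 stayed last at 2.11 ± 0.199. SPTBN1, DST and SYNE2 were the first members on either length.

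Members of the same family or complex were unequal. DST had 2.41 and 2.51 times the level of MACF1 per kb of exon (2.46 ± 0.0689, n = 2), and 1.65 times with representative lengths. SPTBN1 had 4.29 and 5.35 times the level of SPTAN1 (4.82 ± 0.745, n = 2). SYNE2 had 7.43 and 6.44 times the level of SYNE1 (6.93 ± 0.703, n = 2). ANK2 had 6.90 and 5.21 times the level of ANK3 (6.05 ± 1.20, n = 2), and this ratio rose to 15.5 with representative lengths. MAP1B had 0.449 and 0.461 times the level of MAP2 (0.455 ± 0.00836, n = 2). Each of these ratios was on the same side of 1 in both replicates and under every length and strand setting tried.

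**Figure D3:**
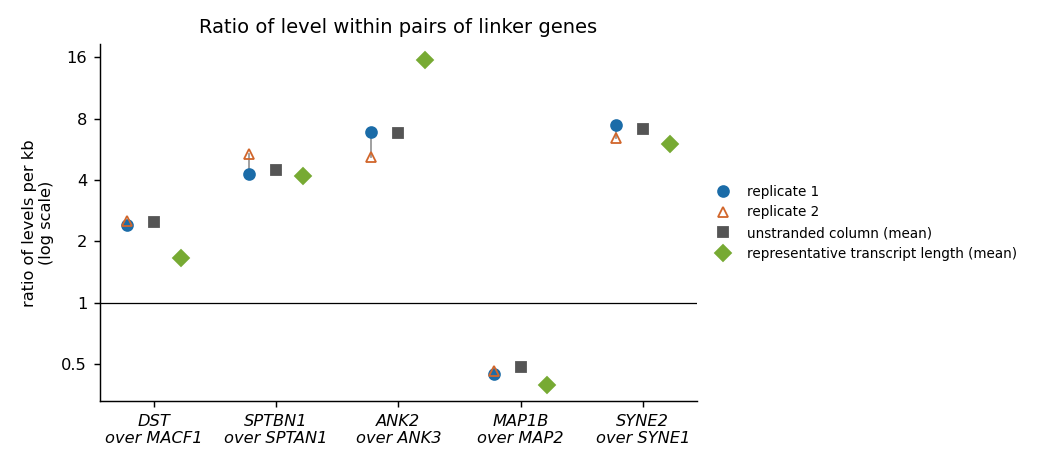
Ratio of the levels per kb within 5 pairs of linker genes (log axis, line at 1), in replicate 1 (circle) and replicate 2 (triangle), and the mean ratio from the unstranded column (square) and with the representative transcript length (diamond). ANK2 over ANK3 moves from 6.05 to 15.5 with the representative length, and MAP1B over MAP2 is the only pair below 1.

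The 2 libraries were compared by the ratio of CPM, replicate 2 over replicate 1, with an exact 95% binomial interval that covers counting error only. SPTAN1 was at 0.725 (0.677 to 0.775), ANK2 at 0.863 (0.806 to 0.923) and SPTBN1 at 0.902 (0.877 to 0.929). SYNE1 was at 1.27 (1.18 to 1.36) and SYNE2 at 1.10 (1.06 to 1.13). These 5 of 10 intervals leave out 1, as did 20.5% of protein-coding genes that averaged 10 counts or more and 47.4% of those that averaged 1000 or more, where 5 of 8 members did. The 2 nesprin genes were the members whose interval lay above 1, with more in replicate 2, a direction found in 7.77% of genes that averaged 10 counts or more. Both nesprin genes averaged more than 1000 counts, and the share in this direction among such genes was not computed. DST at 1.01 (0.984 to 1.03), MACF1 at 0.970 (0.939 to 1.00), MAP2 at 0.979 (0.918 to 1.04), MAP1B at 1.00 (0.915 to 1.10) and ANK3 at 1.14 (0.894 to 1.46) were within counting error of 1. ANK3, with the fewest counts, had the widest interval.

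The relatives and partners described were 44 genes in 9 groups, of which 34 reached a mean count of 10 and 2 had no count. Of the other spectrins described, SPTBN4, a beta spectrin of neurons, had 48 and 21 counts and 0.751 ± 0.326 CPM per kb (n = 2), below SPTBN1 and SPTAN1 in both replicates. SPTB, the beta spectrin of red cells, had 8 and 6 counts, and SPTBN5 had 8 and 5. Of the 7 genes of the adducin and EPB41 families, which join spectrin to actin, 5 reached a mean count of 10, with ADD3 highest at 18.7 ± 0.123 CPM per kb (n = 2). EPB41L2 had 6 and 1 counts and EPB41L3 had none. ANK1, the ankyrin of red cells, had 50 and 23 counts, or 0.852 ± 0.342 CPM per kb (n = 2), with both values below those of ANK3.

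Of the other plakins, PLEC, which encodes plectin, had 1657 and 872 counts and 19.2 ± 6.0 CPM per kb (n = 2), below DST and MACF1 in both replicates. The plakins of epithelia had next to no counts, with 3 and 5 for PPL, 3 and 2 for EPPK1, 1 and 0 for EVPL, and none for DSP. All 5 genes for the microtubule plus-end proteins that spectraplakins meet were detected, and CLASP2 was highest with 2391 and 1907 counts and 37.2 ± 0.868 CPM per kb (n = 2). Among 6 other microtubule-associated genes, DCX, a protein of migrating neuroblasts, was highest with 685 and 475 counts and 14.9 ± 1.81 CPM per kb (n = 2), below MAP1B and MAP2. MAPT, the gene of tau, had 1 and 2 counts.

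The remaining nesprins were low, with 80 and 72 counts for SYNE3 and 4 and 3 for SYNE4. The 8 genes for their partners at the nuclear envelope, the SUN proteins, lamins, emerin and torsin, were all detected. SUN1, which holds nesprins in the nuclear envelope, was highest with 1492 and 1432 counts and 32.8 ± 3.52 CPM per kb (n = 2), between SYNE2 and SYNE1. Of 7 further giant linkers, FLNA, the actin crosslinker filamin A, was highest with 4520 and 2910 counts and 89.2 ± 15.5 CPM per kb (n = 2), a level between those of SPTBN1 and DST. DMD, whose protein dystrophin joins actin to the membrane in muscle, was lowest with 135 and 79 counts.

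Read pairs on the strand opposite to the gene were counted in a separate column. For 8 of the 10 members they were nearly absent, with no count in either library for SPTBN1, MAP2 and SYNE1, 0 and 1 for DST, and 5 and 7 for SYNE2. The median opposite-strand share of the members was 0.0479% of both strands, against 1.09% over 12575 protein-coding genes with enough counts (quartiles 0% and 11.7%). SPTAN1 and MAP1B were the exceptions, with 114 and 102 and with 78 and 46 opposite counts, or 5.56% and 6.38%. A share of at least 1% was found in these 2 of 10 members and in 50.9% of the genes. Most members have more sense counts than most of these genes, and the comparison was not matched for level. Whether the level bears on such a share was not tested. At the 3′ end of SPTAN1 the gene DYNC2I2 runs the other way, shares 10 exon bases with it and had 222 and 144 counts of its own, and ENSG00000280758, an antisense RNA that shares 282 exon bases, had 18 and 21. Their part in the opposite counts of SPTAN1 was not tested.

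Antisense genes that share exon bases with a member take read pairs away from it in counts that ignore strand. SPTBN1 lost 463 and 399 read pairs in this way, and the antisense RNA SPTBN1-AS2, which shares 627 exon bases with it, had 545 and 463 counts on the SPTBN1 strand and none on its own. ANK3 lost 17 and 13, or 12.1% and 9.85% of its read pairs. MACF1 lost 128 and 95, SPTAN1 61 and 57, and SYNE1 40 and 53, at most 3.87% of the read pairs on both strands of each. On the sense strand, no member shares an exon base with another annotated gene. Inside SPTBN1 on its own strand, the pseudogene RPL23AP32 had 55 and 54 counts over 459 bases. Inside ANK2, the pseudogene ENSG00000234841 had 22 and 41 counts over 1301 bases, and MIR8082 had 11 and 10 over 81 bases. Whether these are read pairs of the member's introns was not tested.

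Introns could be sampled where the exons of a gene nested on the other strand lie in an intron of a member, since the count opposite to that gene is sense to the member. There were 20 such windows in 8 members, of which 12 in 6 members had at least 200 bases and are described first. These windows were picked after the values had been seen. A read pair that lies only in part in a window counts whole, and this was not corrected for. Densities per kb of window can thus read too high, most of all in short windows. Pairs with several mapping positions are in no count, so that densities can also read too low in windows that are exons of pseudogenes. In DST, 2 windows of 1.65 kb in sum held 9 and 6 sense counts, or 5.44 and 3.63 per kb, against 285 and 237 counts per kb of exon. The exons of DST were thus 57.5-fold denser. The window in SPTBN1 had 22 and 23 counts, 58.4 and 61.0 per kb, against 598 and 445 per kb of exon, or 11.4% of the exon density.

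The windows in ANK2 were much closer to its exons, with 31.0 and 23.9 sense counts per kb against 37.1 and 26.4 per kb of exon, 86.4% of the exon density over 5 windows of 5.65 kb. The exons of ENSG00000249373 alone, over 427 bases, gave 187 and 159 per kb. Without this window the others gave 18.2 and 12.8 per kb, or 48.8% of the exon density. In MACF1 (3 and 4 counts), SYNE1 (3 and 1) and ANK3 (1 and 1) the windows held too few counts for more than a rough density, which was 11.4%, 5.54% and 27.1% of that in exons.

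The 8 windows under 200 bases lie in 6 members and are the exons of genes for small RNAs or of their pseudogenes. The window in MAP2, 109 bases of RNA5SP118, held 25 and 19 sense counts, or 229 and 174 per kb, against 177 and 143 per kb of MAP2 exon. The mean density there was 126% of that in exons, with a 95% Poisson interval of 147 to 271 per kb. Pairs that reach past so short a window can raise its density, so this value does not show more RNA in the intron than in exons. The other short windows held between 0 and 5 counts in a library. With them, the density in MACF1 rose from 12.2 to 20.0 counts per kb, or 18.8% of that in exons, and SYNE2, which has short windows only, had 2 and 2 counts, or 4.37%. The windows cover a small part of each intron sequence and 5 of the 12 longer ones are exons of pseudogenes, so that they do not give a mean over the introns.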

How the data were processed

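Chromatin RNA of SH-SY5Y cells was sequenced from both ends in 2 directional libraries with molecular identifiers. UMI-tools, Bowtie, STAR and hg38 are named in the submitters' processing notes. By the study's methods, spike-in and rRNA reads were removed with Bowtie 1, and reads were mapped with STAR, deduplicated and mapped again. The versions of UMI-tools and STAR and the gene annotation were not found in the sources used. The authors deposited unnormalized STAR gene counts of read pairs, with 1 unstranded column (2) and 1 for each strand (3 and 4). Pairs with several mapping positions, or over exons of several genes, are in no gene's count. This can lower genes with near-identical copies.

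Column 4, with the higher total, was used, and column 3 as the opposite strand. Counts were divided by the library total in genes (CPM) and by the merged exon length of GENCODE release 44, in which 56558 of 60554 genes were found without version numbers. The versions of the gene identifiers in the counts are older than that release. The exons that were counted may thus differ from those measured, which bears on every level per kb and on shared exon bases. Means and SDs are over 2 libraries. Intervals are exact (binomial or Poisson, 95%) and cover counting error only. No test between groups was possible with 1 condition, and no count model was fitted. The members and lists were chosen with earlier results of these data known. Named genes were the members, relatives that were highest in their group or under a mean count of 10, the overlapping gene with the most counts, and the nearest genes of DST and SPTBN1 by CPM, and further relatives, antisense genes and windows were chosen after their values were seen. Of 46 relatives under this rule, 2 are not reported here, and the counts and plots of relatives cover the other 44 only. The interval and size-factor steps were tested on simulated data. Python 3.11.15, numpy 2.4.6, pandas 2.3.3 and scipy 1.17.1 were used.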

Additional observations from a re-analysis of the deposited data

Results flagged for a closer look

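Read pairs on the strand opposite to the gene, which the levels do not use, averaged more than the 3 counts that a count of 0 allows in 3 members. SPTAN1 had a mean of 108 opposite counts, in 2 libraries with 114 and 102. MAP1B had a mean of 62, with 78 and 46. SYNE2 had a mean of 6, with 5 and 7, which is 0.0825% of both strands. For MAP1B no gene with a count overlaps it on the other strand, and an annotated RNA over its start, ENSG00000285804, shares no exon base with it and was not analysed here. The source of these read pairs was not tested.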

How the results depend on the processing

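With 2 libraries of 1 condition, an SD rests on 2 values. The exon length set the ratios most. With the representative transcript length, DST over MACF1 was 1.65, ANK2 over ANK3 15.5, MAP1B over MAP2 0.394 and SYNE2 over SYNE1 5.99, and with the unstranded column MAP1B over MAP2 was 0.486. These moved by more than the SD between replicates, and none crossed 1. SPTBN1 over SPTAN1 moved by less. No base was shared on the sense strand, so that leaving shared bases out changed no ratio. By a single library, the ratios ran from 2.41 to 2.51, 4.29 to 5.35, 5.21 to 6.90, 0.449 to 0.461 and 6.44 to 7.43 for DST over MACF1, SPTBN1 over SPTAN1, ANK2 over ANK3, MAP1B over MAP2 and SYNE2 over SYNE1. The number of members in the top 10% was 9 by CPM, 7 per kb of exon and 8 among genes with at least 10 kb of exon, and 9 under the other settings. The median opposite-strand share was 0.0387% to 0.0582% in single libraries. Median-of-ratios size factors kept all 10 levels within their SD, and the unstranded column 5 of 10. The window density in ANK2, 27.4 counts per kb, was 15.5 without its densest window. With no minimum window size the density moved beyond the SD in MACF1, to 20.0, and in ANK3, to 1.83. In ANK3 the window held 1 count in each library and the SD was 0, so that any change lies beyond it. Both alternatives were chosen after seeing the data. No paired analysis was possible because there is only 1 group.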
